A study of Homo sapiens with 12 samples.

Results

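The ETS family transcription factor genes described here are ETS1, ETS2, ELF3, EHF, ELF5, SPDEF, ETV1, ETV4, ETV5 and FLI1, 10 of the 20007 protein-coding genes of GENCODE v44. They were chosen by name, and each was measured over its gene body and 20 kb on each side, which is called its window. Chromatin accessibility was measured by ATAC-seq, in which a transposase inserts sequencing adapters into open DNA, in 12 libraries of nuclei from cultured human cells. DU-145 is a castration-resistant prostate cancer line and BT-549 a triple-negative breast cancer line, and both carried a doxycycline (DOX)-inducible short hairpin RNA against MUC1 (tet-MUC1shRNA). Each line gave 3 vehicle libraries, from cells given 0.1% DMSO (1 field of the labels calls them untreated), and 3 DOX libraries, from cells given DOX for a week to silence MUC1. Silencing of MUC1 and DOX itself share 1 contrast in each line, and they cannot be told apart. In these bulk nuclei, fewer cells with an open site and less accessibility per cell cannot be told apart either.

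ETS proteins share a winged helix-turn-helix domain that binds DNA at a GGAA core, and many of them sit downstream of the RAS and ERK kinases. ELF3, EHF, ELF5 and SPDEF are mostly epithelial and are tied to differentiation of glandular epithelia, whereas ETS1, ETS2 and the ETV1, ETV4 and ETV5 subfamily are tied to growth signalling, migration and invasion. ETV1, ETV4 and FLI1 are best known in tumours as partners of gene fusions, ETV1 and ETV4 in prostate cancer and FLI1 in Ewing sarcoma.

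The deposited value of each bin of 100 bp is the mean number of fragments over its bases, given only for bins in regions that the authors called accessible in that line. They kept a region when at least 3 libraries had a peak there, whatever the group. Where only vehicle libraries had a peak, the region was chosen through the group in which it was high. The test of its fall is not independent of that choice. Values were scaled to the sum of the library over its table and are given as CPM, parts per 1e+06 of that sum. Where the lines were compared over bins that both tables hold, the sum was taken over those shared bins, so that the same bins have other CPM values there. The sums were 13868501, 24001285 and 12370094 in DU-145 vehicle, 16337380, 25232000 and 21094631 in DU-145 DOX, 13606129, 11675868 and 9142900 in BT-549 vehicle, and 2580687, 2502510 and 3267024 in BT-549 DOX libraries. The BT-549 DOX libraries thus stood apart, with 30450 to 39837 called peaks against 65204 to 93929 in BT-549 vehicle and a median bin of 2.96 to 4.09 against 11.4 to 16.8, and the part of depth in the BT-549 results was not tested. A difference was called at an adjusted p under 0.05 in edgeR's quasi-likelihood test, fitted over all windows or all accessible regions (runs of adjacent bins) of a line. Changes are log2 fold changes with their standard errors, n = 3 libraries a group, and a site with a called change is said to have opened or closed.

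Marker genes were read in vehicle cells within 2 kb of their start sites. All 6 epithelial markers (CDH1, EPCAM, KRT8, KRT18, ESRP1 and CLDN4) had accessible bins in DU-145 and 2 of 6 in BT-549, with summed coverage of 460.3 and 32.6 CPM. The 4 without bins in BT-549 still had MACS2 peaks in vehicle libraries, EPCAM in 3 of 3, KRT8 and KRT18 in 2 and CDH1 in 1. Of the mesenchymal markers, 4 of 6 had bins in DU-145 and 6 of 6 in BT-549, at 199 and 398 CPM, VIM being the most covered in both lines and CDH2 and TWIST1 having 0 bins in DU-145. Of the prostate luminal markers, TMPRSS2 had bins in DU-145 (13.2 CPM) and KLK3 and KLK2 had 0 there. Breast luminal markers had bins at 4 of 4 genes in DU-145 and 2 of 4 in BT-549, where ESR1 and PGR had 0 bins but a peak in 1 and 2 of 3 libraries. Haematopoietic markers had bins at 2 of 4 genes in DU-145 (7.63 CPM in all, mostly CD79A) and 0 of 4 in BT-549, and endothelial markers at 1 of 4 (VWF, 0.719 CPM) and 0 of 4. PTPRC and VWF had bins but no peak in DU-145 vehicle libraries, while PTPRC had a peak in 2 of 3 BT-549, CDH5 in 2 of 3 DU-145 and TEK in 1 of 3 BT-549 vehicle libraries without bins there.

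MUC1, the gene targeted by the hairpin, encodes a transmembrane mucin of epithelial surfaces. Its promoter region held 89.0, 96.9 and 87.3 CPM in DU-145 vehicle and 76.9, 84.3 and 81.5 CPM in DU-145 DOX libraries (log2 fold change -0.17 ± 0.08, adjusted p = 0.0534), and in BT-549 149, 173 and 146 CPM with vehicle and 161, 172 and 141 CPM with DOX (log2 fold change 0.02 ± 0.10, adjusted p = 0.907). The DOX libraries lay below the vehicle libraries in DU-145 and overlapped them in BT-549, and neither difference was called. In DU-145 the MUC1 promoter was called with TMM, RLE and DESeq2 scaling (-0.36, -0.42 and -0.42), with replicates as blocks (-0.17), by its highest bin (-0.43), and without vehicle replicate 1 (-0.19) or DOX replicate 2 (-0.20). Over the whole window MUC1 fell slightly in DU-145, from 213, 227 and 220.3 to 182, 216 and 199 CPM (log2 fold change -0.15 ± 0.06, adjusted p = 0.0427), groups that overlapped. This call ended with TMM (-0.10), RLE (-0.09) and DESeq2 (-0.09) scaling, with the GC trend removed (-0.03), with 10 and 50 kb flanks (-0.12 and -0.13), and without vehicle replicate 2 (-0.12) or 3 (-0.14) or DOX replicate 1 (-0.09) or 3 (-0.14). In BT-549 the MUC1 window was not called (-0.03, adjusted p = 0.785). A hairpin acts on the transcript, so that these values are no check of the knockdown.

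In DU-145 the question was how accessibility around the 10 genes changed when DOX was given. ETS1, ETS2, ETV1, ETV4 and FLI1 opened over their windows, ELF3 and SPDEF closed, and EHF, ELF5 and ETV5 were not called. The called changes ran from -0.64 for SPDEF to 1.48 for ETV1, which had only 4 accessible bins. The 5 that opened compare with 20.6% of all 18199 windows tested, and the 2 that closed with 31.3%. The median change of the 10 genes was 0.14, against -0.06 over all windows. Of all called windows 39.7% had opened with library sums as the scale, against 49.4% with TMM and 50.2% with RLE factors, and the 7 called genes kept their direction under each of these scales. With only bins within 2 kb of start sites ETS1, ETS2, SPDEF and FLI1 were not called (0.17, 0.15, -0.02 and -0.08), EHF was called lower (-2.21), and 2 of the 10 opened. By another unit, regions that hold a start site of any protein-coding gene, 11.3% opened and 36.3% closed in DU-145. With 50 kb flanks ELF3 moved to -0.25 and ETV4 to 0.27, both still called.

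**Figure D1:**
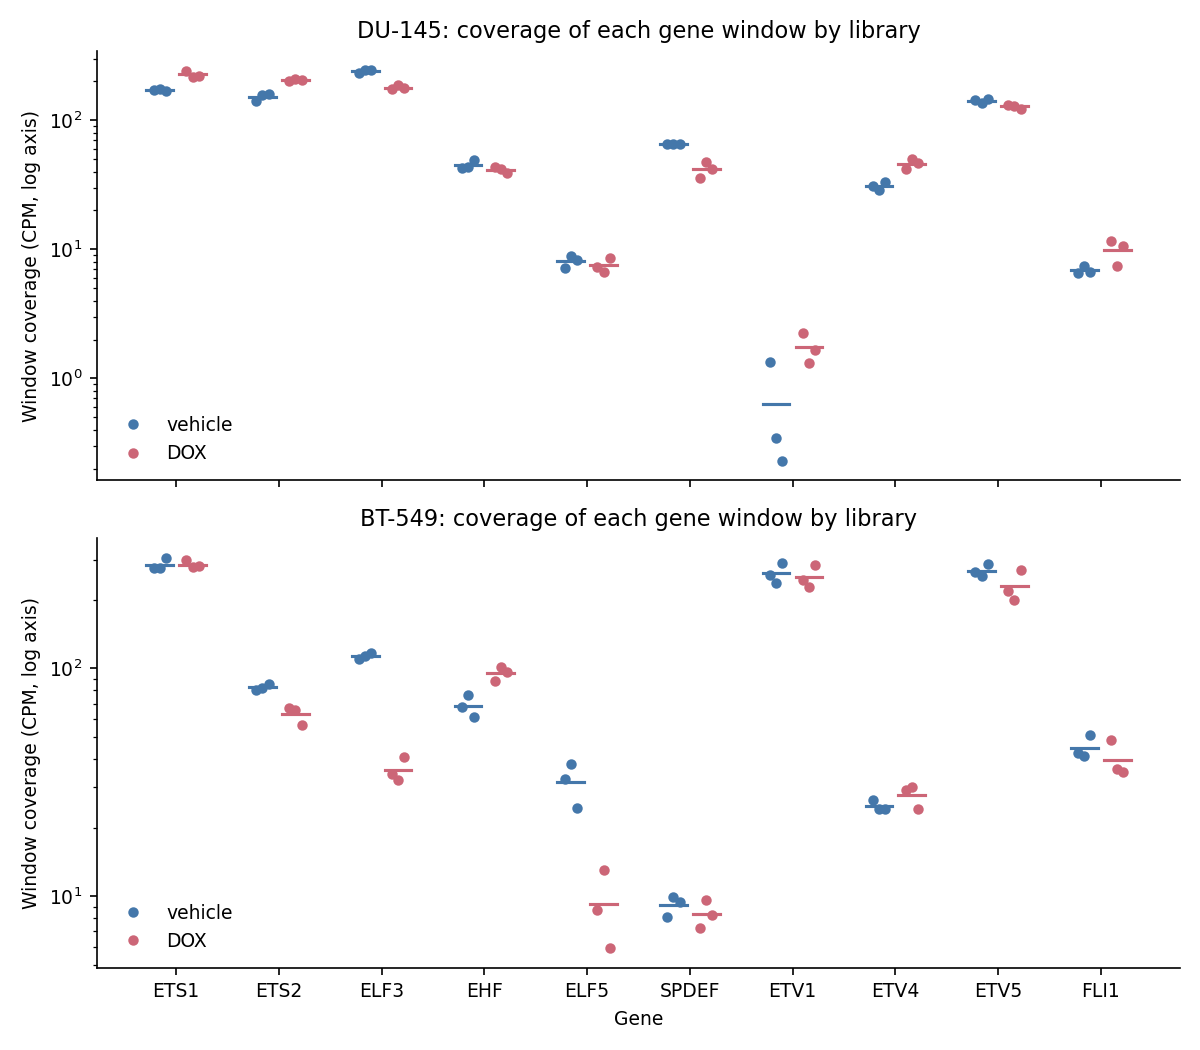
Coverage of each gene window (CPM, logarithmic axis) in every library of DU-145 (top) and BT-549 (bottom), with 1 point per library and a bar at the mean of 3. In DU-145 the vehicle and DOX points of ETS1, ETS2, ELF3, SPDEF and ETV4 are clearly apart, and in BT-549 those of ETS2, ELF3, EHF and ELF5 are.

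ETS1, the founding member of the family, held 172, 173 and 169 CPM over its window in DU-145 vehicle libraries and 239.7, 217 and 222 CPM in DOX libraries. Each DOX library exceeded each vehicle library, and the window opened (log2 fold change 0.40 ± 0.06, adjusted p = 7.0e-07). The gene lies on the minus strand at chr11:128458761-128587558 (hg38), and its canonical transcription start site (TSS) held no accessible bin, and no peak within 1 kb in any of the 12 libraries. The accessible start was another annotated TSS, 65.2 kb downstream, with 71.5, 60.8 and 65.3 CPM with vehicle and 73.8, 65.1 and 69.6 CPM with DOX (log2 fold change 0.08 ± 0.08, adjusted p = 0.443). These groups overlapped, and this start was called with the GC trend removed (0.22) but lower and not called with TMM, RLE and DESeq2 scaling (-0.12, -0.17 and -0.17). Of the 11 regions of the window 8 opened, all in introns or beyond the 3′ end, and 0 closed. Of all DU-145 regions 37.1% opened and 17.4% closed, and of those away from start sites 43.1% and 13.02%. An intronic region at chr11:128467501-128468500 went from 1.64, 1.89 and 1.55 CPM to 14.7, 9.05 and 10.2 CPM (log2 fold change 2.71 ± 0.22, adjusted p = 2.3e-12). It was low in every vehicle library, and MACS2 called a peak there in 2 of 3 vehicle and 3 of 3 DOX libraries. It thus needed DOX peaks to be kept. A further region 139 kb downstream of the canonical TSS, at chr11:128448201-128449400, held 10.8, 11.3 and 11.9 CPM with vehicle and 22.2, 22.3 and 20.3 CPM with DOX (log2 fold change 0.93 ± 0.13, adjusted p = 1.5e-07), with no overlap between the groups.

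The 300 bases around the highest bin of these ETS1 elements are shown because the intronic element had the smallest adjusted p among the ETS1 regions that opened in DU-145 and the downstream element among those in BT-549. The sequences are of the plus strand of hg38, at chr11:128467601-128467900 and chr11:128448501-128448800. Capitals mark the letters TGANTCA, searched on both strands as the core bound by AP-1, the JUN and FOS dimers, and GGAAGT, also on both strands, as an ETS core. Each element held TGANTCA at 1 place and GGAAGT at 0. These sequences and the 5 printed below were chosen after their values were seen.
ETS1 intronic element: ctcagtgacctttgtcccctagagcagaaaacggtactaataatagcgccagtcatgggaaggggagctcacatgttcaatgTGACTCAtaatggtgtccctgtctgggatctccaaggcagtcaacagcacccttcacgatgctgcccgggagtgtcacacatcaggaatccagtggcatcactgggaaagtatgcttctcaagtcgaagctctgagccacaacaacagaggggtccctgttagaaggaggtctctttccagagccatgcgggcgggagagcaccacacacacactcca
ETS1 downstream element: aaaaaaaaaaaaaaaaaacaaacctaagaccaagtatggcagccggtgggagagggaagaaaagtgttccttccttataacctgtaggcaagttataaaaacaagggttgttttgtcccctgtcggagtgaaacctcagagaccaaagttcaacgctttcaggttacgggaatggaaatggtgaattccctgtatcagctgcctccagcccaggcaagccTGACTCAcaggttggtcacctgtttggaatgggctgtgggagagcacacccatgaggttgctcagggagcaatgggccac

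In windows of 300 bases around the highest bin of every accessible region, TGANTCA was present in 37.4% of 79177 DU-145 regions and 23.03% of 46298 BT-549 regions, and GGAAGT in 21.1% and 20.3%. The RefSeq table (build GRCh38.p14) held 13 promoters of 300 bases for 6 of the 10 genes, of which 3 (ETS2, ETV1 and SPDEF) held GGAAGT and 0 held TGANTCA, against 22.8% and 7.71% of 35116 promoters. A match of these letters is a description and not a binding site.

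ETS2, an ERK-responsive relative of ETS1 at chr21:38805183-38824955 on the plus strand, held 139.6, 156 and 161 CPM with vehicle and 203, 209 and 203 CPM with DOX in DU-145. Its window opened (log2 fold change 0.43 ± 0.06, adjusted p = 3.7e-07), and the lowest DOX library was above the highest vehicle library. Its promoter region was the most covered, with 67.4, 76.9 and 78.7 CPM and 77.5, 81.3 and 76.1 CPM, groups that overlapped (log2 fold change 0.07 ± 0.08, adjusted p = 0.447, and -0.12, -0.17 and -0.17 with TMM, RLE and DESeq2 scaling). Upstream, within and downstream of the gene, 7 of 10 regions opened and 0 closed, beside 37.1% and 17.4% of all DU-145 regions. The smallest adjusted p was at chr21:38839101-38840500, 33.9 kb downstream of the TSS, where 10.3, 14.6 and 13.8 CPM became 27.6, 28.3 and 26.7 CPM (log2 fold change 1.08 ± 0.13, adjusted p = 6.0e-09). A neighbouring region at chr21:38831201-38832100 held 4.89, 4.58 and 5.24 CPM with vehicle and 9.40, 7.09 and 9.70 CPM with DOX (log2 fold change 0.83 ± 0.18, adjusted p = 0.000236). Every DOX library exceeded every vehicle library at both sites. The latter is printed from chr21:38831601-38831900 (hg38, plus strand) because it changed in opposite directions in the lines, and it held neither TGANTCA nor GGAAGT.
ETS2 downstream element: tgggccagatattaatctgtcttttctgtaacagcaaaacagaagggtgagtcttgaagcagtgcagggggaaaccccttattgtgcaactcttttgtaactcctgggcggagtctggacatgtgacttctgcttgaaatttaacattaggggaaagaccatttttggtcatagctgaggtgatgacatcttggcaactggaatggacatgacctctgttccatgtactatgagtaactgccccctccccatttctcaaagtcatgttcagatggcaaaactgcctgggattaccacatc

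ELF3, an epithelium-restricted activator at chr1:202007945-202017183 on the plus strand, closed in DU-145. Its window fell from 232, 243 and 243 CPM to 175, 186 and 176 CPM (log2 fold change -0.42 ± 0.06, adjusted p = 2.1e-07), every DOX library being below every vehicle library. The promoter region held 82.9, 79.1 and 81.7 CPM with vehicle and 46.9, 58.3 and 52.6 CPM with DOX (log2 fold change -0.62 ± 0.08, adjusted p = 1.1e-07), without overlap. The most covered region, over the 3′ end of the gene, held 98.5, 104 and 92.2 CPM and 79.3, 71.6 and 73.9 CPM (log2 fold change -0.39 ± 0.08, adjusted p = 4.4e-05). A region 24.4 kb downstream of the TSS at chr1:202034301-202035600 held 29.8, 33.5 and 39.8 CPM with vehicle and 20.3, 22.7 and 21.1 CPM with DOX (log2 fold change -0.68 ± 0.11, adjusted p = 3.3e-06). Both were lower in every DOX library. In all 3 of 8 ELF3 regions closed and 2 opened, beside 17.4% and 37.1% of all DU-145 regions. One that opened, 12.4 kb downstream of the TSS and picked after its values were seen, held 12.3, 13.7 and 15.4 CPM with vehicle and 15.9, 19.8 and 15.6 CPM with DOX (log2 fold change 0.32 ± 0.14, adjusted p = 0.0482). The other, a weak region 3.54 kb upstream, had 0.92 (adjusted p = 0.0161), a call that ended with TMM, RLE and DESeq2 scaling (0.73, 0.67 and 0.66), with the GC trend removed (0.71), and without vehicle replicate 1 (0.62) or 2 (0.84) or DOX replicate 3 (0.77). The downstream element is printed from chr1:202034601-202034900 (hg38, plus strand) because it closed in both lines, and it held neither motif.
ELF3 downstream element: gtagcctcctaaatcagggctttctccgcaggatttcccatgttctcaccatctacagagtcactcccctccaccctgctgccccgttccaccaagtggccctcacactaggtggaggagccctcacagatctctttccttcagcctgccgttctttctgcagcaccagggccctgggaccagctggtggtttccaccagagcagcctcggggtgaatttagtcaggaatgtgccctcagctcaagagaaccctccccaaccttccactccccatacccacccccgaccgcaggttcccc

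EHF, another epithelial factor, which lies beside ELF5 on chromosome 11, held 42.9, 43.8 and 49.0 CPM with vehicle and 43.0, 41.7 and 39.0 CPM with DOX over its window in DU-145. The groups overlapped, and the window was not called (log2 fold change -0.13 ± 0.09, adjusted p = 0.226). It was called lower with the GC trend removed (-0.35), with 10 kb flanks (-0.27) and within 2 kb of start sites (-2.21), where its accessible bins lie in an intronic region. No peak lay within 1 kb of its annotated start sites in any DU-145 library. That intronic region, at chr11:34640201-34640700, held 4.60, 3.96 and 3.30 CPM with vehicle and 1.02, 0.772 and 0.798 CPM with DOX (log2 fold change -2.21 ± 0.29, adjusted p = 5.1e-08). A peak was called there in 3 of 3 vehicle and 0 of 3 DOX libraries, so that the region was kept through vehicle peaks alone. A region downstream of the gene opened, from 4.05, 3.47 and 3.58 CPM to 7.21, 6.70 and 6.68 CPM (log2 fold change 0.90 ± 0.20, adjusted p = 0.000181). The most covered region, in an intron at chr11:34653801-34655700, held 34.2, 36.3 and 42.1 and 34.8, 34.3 and 31.5 CPM and was not called (-0.16, adjusted p = 0.175). TMM, RLE and DESeq2 scaling gave it a call, at -0.35, -0.40 and -0.40, as did removal of the GC trend (-0.38) and its highest bin (-0.51). The part at chr11:34654001-34654300 (hg38, plus strand) is printed because it opened in BT-549, and it held TGANTCA at 1 place (capitals) and GGAAGT at 0.
EHF intronic element: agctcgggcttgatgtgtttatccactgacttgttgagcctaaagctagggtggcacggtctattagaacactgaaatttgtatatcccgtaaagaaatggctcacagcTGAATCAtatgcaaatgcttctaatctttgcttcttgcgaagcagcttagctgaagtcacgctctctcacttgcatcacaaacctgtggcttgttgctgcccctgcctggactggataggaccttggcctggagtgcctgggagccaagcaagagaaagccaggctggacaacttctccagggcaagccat

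ELF5, a factor of mammary alveolar and other secretory epithelium on the minus strand of chromosome 11, had 14 accessible bins in DU-145 and low coverage, 7.22, 8.86 and 8.23 CPM with vehicle and 7.27, 6.64 and 8.60 CPM with DOX. These groups overlapped and the window was not called (log2 fold change -0.13 ± 0.17, adjusted p = 0.547), though with 50 kb flanks it was (-0.45). It held regions with opposite changes. An intronic region at chr11:34501501-34502300 held 6.60, 6.91 and 6.004 CPM with vehicle and 3.82, 3.11 and 4.87 CPM with DOX (log2 fold change -0.74 ± 0.20, adjusted p = 0.00241), and another intronic region held 0.617, 1.95 and 2.22 CPM and 3.46, 3.52 and 3.73 CPM (log2 fold change 1.11 ± 0.29, adjusted p = 0.00141). In the former every DOX library was lower, and in the latter every DOX library was higher. The latter had a peak in 2 of 3 vehicle and 3 of 3 DOX libraries, and so needed DOX peaks to be kept. The former is printed from chr11:34501701-34502000 (hg38, plus strand) because it closed in both lines, and it held neither motif.
ELF5 intronic element: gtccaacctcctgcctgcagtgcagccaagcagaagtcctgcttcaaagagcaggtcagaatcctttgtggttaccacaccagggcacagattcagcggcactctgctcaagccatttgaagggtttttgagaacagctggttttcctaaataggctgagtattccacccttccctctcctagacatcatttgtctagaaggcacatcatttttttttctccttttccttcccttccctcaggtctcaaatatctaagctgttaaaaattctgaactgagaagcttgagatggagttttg

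SPDEF, a prostate-derived factor of luminal and goblet cells at chr6:34537802-34556333 on the minus strand, had the lowest fold change of the called member windows in DU-145. It held 65.9, 65.7 and 65.0 CPM in vehicle libraries and 35.9, 47.8 and 41.9 CPM in DOX libraries (log2 fold change -0.64 ± 0.09, adjusted p = 4.3e-07). The vehicle libraries differed little from each other, and every DOX library was below them. An intronic region at chr6:34546501-34547600 fell from 19.3, 21.8 and 19.4 CPM to 3.89, 6.85 and 4.67 CPM (log2 fold change -1.94 ± 0.16, adjusted p = 4.2e-12). The highest DOX library there was below the lowest vehicle library. The TSS region held 5.50, 4.19 and 2.55 and 3.26, 4.42 and 4.40 CPM and was not called (-0.02, adjusted p = 0.949), and the most covered region, 4.42 kb upstream, closed from 31.6, 30.5 and 33.4 CPM to 22.8, 28.1 and 26.0 CPM (log2 fold change -0.30 ± 0.11, adjusted p = 0.0149). That last call ended by the highest bin (-0.17) and without vehicle replicate 3 (-0.27) or DOX replicate 1 (-0.23). In all 3 of 5 SPDEF regions closed and 0 opened, beside 17.4% and 37.1% of all DU-145 regions. Of the 3, 1 lay in the neighbouring gene PACSIN1. The intronic element is printed from chr6:34546801-34547100 (hg38, plus strand) because it had the smallest adjusted p of the SPDEF regions, and it held neither motif.
SPDEF intronic element: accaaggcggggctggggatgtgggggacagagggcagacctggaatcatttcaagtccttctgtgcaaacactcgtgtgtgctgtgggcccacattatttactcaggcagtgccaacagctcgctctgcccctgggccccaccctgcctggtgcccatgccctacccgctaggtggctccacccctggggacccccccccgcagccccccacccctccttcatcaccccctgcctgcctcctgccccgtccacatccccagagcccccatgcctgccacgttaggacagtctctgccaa

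ETV1, ETV4 and ETV5 form the PEA3 subfamily, targets and effectors of fibroblast growth factor and ERK signalling. ETV4 held 31.0, 28.8 and 33.4 CPM with vehicle and 42.2, 49.7 and 46.3 CPM with DOX in DU-145, without overlap, and its window opened (log2 fold change 0.58 ± 0.10, adjusted p = 6.0e-06). Its canonical promoter region held 23.5, 21.8 and 24.7 CPM and 28.4, 36.1 and 33.8 CPM (log2 fold change 0.50 ± 0.11, adjusted p = 0.000206), a call that ended with RLE factors (0.25) and with DESeq2 (0.25). Another annotated TSS, 33.3 kb upstream at chr17:43579401-43579900, went from 0.933, 1.04 and 0.273 CPM to 4.55, 4.84 and 4.08 CPM (log2 fold change 2.48 ± 0.31, adjusted p = 2.0e-08), with a peak in 1 of 3 vehicle and 3 of 3 DOX libraries. This upstream region thus needed DOX peaks to be kept. Both ETV4 sites lie within the annotated body of DHX8, as does a weak ETV4 region that closed (-0.80, adjusted p = 0.0228), a call that ended without vehicle replicate 1 (-0.66) or DOX replicate 1 (-0.68). ETV5 was covered mostly at its promoter, with 126, 119.5 and 127 CPM and 118, 113 and 110.0 CPM (log2 fold change -0.13 ± 0.07, adjusted p = 0.11), and its window held 143, 136 and 145.1 CPM with vehicle and 132, 128 and 123 CPM with DOX (log2 fold change -0.14 ± 0.06, adjusted p = 0.0501). The ETV5 window was lower in every DOX library and missed the threshold, but passed it with limma, with replicates as blocks and by the nearest start site (-0.14 each), with windows of a total of at least 100 (-0.14), and without DOX replicate 1 (-0.17). The ETV5 promoter was called lower with TMM, RLE and DESeq2 scaling (-0.33, -0.38 and -0.38) and by its highest bin (-0.31). A weak region 8.76 kb upstream of ETV5 closed (log2 fold change -2.80 ± 0.49, adjusted p = 8.3e-06), from 2.16, 1.12 and 1.64 CPM to 0.315, 0.274 and 0.0844 CPM, with -1.09 in limma. It had a peak in 3 of 3 vehicle and 0 of 3 DOX libraries, and so was kept through vehicle peaks alone.

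ETV1 had 4 accessible bins in DU-145, at an annotated TSS 1.83 kb upstream of the canonical one. They held 1.33, 0.344 and 0.230 CPM with vehicle and 2.26, 1.31 and 1.67 CPM with DOX. A peak was called there in 1 of 3 vehicle and 3 of 3 DOX libraries, so that the region needed DOX peaks to be kept. Vehicle replicate 1 was just above the lowest DOX library, so that the groups overlapped, and the call (log2 fold change 1.48 ± 0.42, adjusted p = 0.00387) ended without vehicle replicate 2, at 1.02, and moved to 2.47 without vehicle replicate 1 and 0.78 with limma. In the fit over accessible regions the call of the same 4 bins also ended with DESeq2 (1.20). FLI1, a factor of blood and endothelial cells, held 6.58, 7.39 and 6.72 CPM with vehicle and 11.5, 7.40 and 10.6 CPM with DOX in 19 bins (log2 fold change 0.49 ± 0.17, adjusted p = 0.0164), and DOX replicate 2 was at the level of the highest vehicle library. The FLI1 region downstream of the gene, its most covered, held 2.15, 4.40 and 4.21 CPM with vehicle and 6.53, 3.91 and 5.82 CPM with DOX, which overlapped (log2 fold change 0.56 ± 0.24, adjusted p = 0.0458). The call of this region ended with TMM, RLE and DESeq2 scaling (0.36, 0.31 and 0.33), with the GC trend removed (0.36), with replicates as blocks (0.56), by the highest bin (0.19), and without vehicle replicate 1 (0.31), DOX replicate 1 (0.41) or DOX replicate 3 (0.50). The call of the FLI1 window ended without vehicle replicate 1 (0.46), without DOX replicate 1 (0.37) or without DOX replicate 3 (0.43), with the GC trend removed (0.40), by the nearest start site (0.42) and with 10 and 50 kb flanks (0.42 and 0.30), and around its start sites alone the value was -0.08. No peak lay within 1 kb of its canonical TSS in any of the 6 DU-145 libraries. Within 1 kb of any of its annotated start sites, 2 of 3 vehicle and 3 of 3 DOX libraries had a peak.

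**Figure D2:**
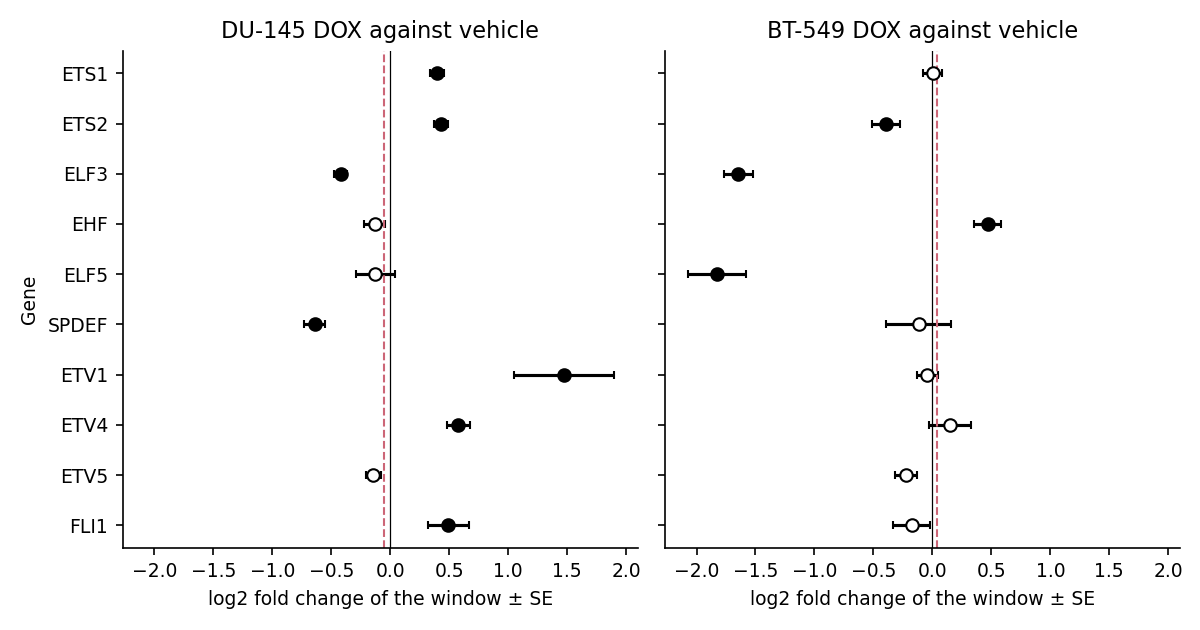
Log2 fold change of each gene window with DOX for DU-145 at left and BT-549 at right, with standard errors and filled points for called changes. The dashed line is the median of all windows of the line, -0.06 in DU-145 and 0.04 in BT-549, and with these 20 kb flanks ELF3 alone of the 10 has called decreases in both lines, -0.42 and -1.64 (with 10 kb flanks its BT-549 value is -0.42 and not called).

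Across the accessible regions of the 10 windows in DU-145, 24 of 53 opened and 10 closed, against 37.1% and 17.4% of all 79177 regions. The median of all regions was itself 0.24 with library sums and 0.05 with TMM factors. Relative to 0.24 the changes were 2.46 at the ETS1 intronic region, 0.84 at the ETS2 downstream region, -0.86 at the ELF3 promoter and -2.19 at the SPDEF intronic region. Of the called regions of DU-145, 68.0% had opened with library sums, 54.1% with TMM, 50.6% with RLE factors, 50.03% with DESeq2 and 64.6% with the GC trend removed, which left a median of 0.16. At start sites 3 of 9 regions opened and 1 closed, beside 11.3% and 36.3% of 15018 regions at a start site of any protein-coding gene. Away from them 21 of 44 opened and 9 closed, beside 43.1% and 13.02% of 64159. The median GC content was 47.2% in the regions that opened and 54.6% in those that closed, beside 44.5% and 51.8% over all DU-145 regions that opened and closed. By single bins, with the study's limits of a fold change of 2 and an adjusted p under 1e-05, 24 of 527 bins in the 10 windows opened and 9 closed (4.55% and 1.71%), beside 5.0% and 1.59% of 709226 bins. These shares from edgeR were close to those of all bins. DESeq2, which the authors applied to the bins, called 2 and 9, beside 0.919% and 0.907% of all bins.

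In BT-549 EHF opened over its window with DOX, ETS2, ELF3 and ELF5 closed, and the other 6 were not called. The 1 that opened compares with 19.0% of all 16966 windows tested, and the 3 that closed with 13.8%. Of all called windows 57.9% had opened with library sums as the scale, against 49.4% with TMM and 50.8% with RLE factors. The median of the 10 genes was -0.15, against 0.04 over all windows. The changes furthest from 0 with these 20 kb flanks were those of ELF5 and ELF3, -1.83 and -1.64, which became -0.72 and -0.75 with 50 kb flanks, and the 4 called genes kept their direction with TMM, RLE and DESeq2 scaling.

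ELF3 held 110.2, 113 and 117 CPM with vehicle and 34.5, 32.3 and 41.0 CPM with DOX over its window in BT-549. Each DOX library was far below each vehicle library (log2 fold change -1.64 ± 0.12, adjusted p = 1.4e-12). Most of this coverage was in the downstream element printed above, at chr1:202034101-202036000 in this line, which went from 83.7, 88.1 and 91.7 CPM to 17.6, 14.0 and 21.7 CPM (log2 fold change -2.28 ± 0.15, adjusted p = 9.1e-12). That element had a peak in 3 of 3 vehicle and 2 of 3 DOX libraries, and so needed vehicle peaks to be kept. The ELF3 promoter held 22.0, 20.1 and 18.9 CPM with vehicle and 14.9, 15.1 and 16.7 CPM with DOX, lower in every DOX library but not called (log2 fold change -0.38 ± 0.21, adjusted p = 0.168), though by its highest bin it was (-1.03). With 10 kb flanks, which leave the downstream element out, the window's change was -0.42 and was not called, as within 2 kb of start sites (-0.38).

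ELF5 was covered in BT-549 by its intronic element alone, at chr11:34501201-34502400, with 32.6, 37.9 and 24.4 CPM in vehicle and 8.68, 13.1 and 5.90 CPM in DOX libraries. The groups were apart, and the element closed (log2 fold change -1.82 ± 0.25, adjusted p = 2.6e-06), with a peak in 3 of 3 vehicle and 1 of 3 DOX libraries. The element, and with it the ELF5 window, thus needed vehicle peaks to be kept. EHF moved the other way. Its window held 68.0, 76.3 and 61.0 CPM with vehicle and 87.7, 101 and 96.3 CPM with DOX (log2 fold change 0.47 ± 0.12, adjusted p = 0.00184), higher in each DOX library than in any vehicle library, and its intronic element, at chr11:34653201-34655700, opened from 53.7, 59.3 and 47.2 CPM to 76.7, 97.2 and 88.3 CPM (log2 fold change 0.71 ± 0.12, adjusted p = 6.9e-05). At another TSS of EHF a weak region held 6.13, 7.42 and 7.12 CPM with vehicle and 5.01, 1.71 and 3.15 CPM with DOX (log2 fold change -1.08 ± 0.38, adjusted p = 0.0294), so that the start sites alone gave -1.08. The call of that region ended without vehicle replicate 1 (-1.17), 2 (-1.02) or 3 (-1.06) and without DOX replicate 2 (-0.79) or 3 (-1.04), with DESeq2 (-0.99), with the GC trend removed (-0.92) and by its highest bin (-1.10). In an EHF intron 23.9 kb downstream another weak region closed (-1.43, adjusted p = 0.0133), a call that ended without vehicle replicate 2 (-1.32) or DOX replicate 2 (-0.99) and by its highest bin (-1.35). Both weak EHF regions had a peak in 3 of 3 vehicle and 0 of 3 DOX libraries, and so were kept through vehicle peaks alone. SPDEF had 1 accessible region in BT-549, inside PACSIN1, with 8.10, 9.87 and 9.38 CPM and 7.26, 9.59 and 8.23 CPM, which overlapped and was not called (-0.12, adjusted p = 0.793).

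ETS1 was not called over its window in BT-549, with 275, 275 and 305 CPM in vehicle and 298, 278 and 281 CPM in DOX libraries, groups that overlapped (log2 fold change 0.00 ± 0.08, adjusted p = 0.982). Its regions did not move together, since 2 of 13 opened and 7 closed. The downstream element, at chr11:128448401-128449400, went from 7.25, 7.48 and 8.54 CPM to 36.1, 38.0 and 32.7 CPM (log2 fold change 2.2 ± 0.20, adjusted p = 3.4e-09), every DOX library being far above every vehicle library. An intronic region at chr11:128482501-128483600 fell from 14.4, 12.5 and 16.8 CPM to 6.82, 2.14 and 3.69 CPM (log2 fold change -1.79 ± 0.33, adjusted p = 0.000129), again without overlap. This intronic region was kept through vehicle peaks alone, with a peak in 3 of 3 vehicle and 0 of 3 DOX libraries. The accessible TSS region rose from 96.6, 93.4 and 107 CPM to 126, 122 and 114 CPM (log2 fold change 0.29 ± 0.10, adjusted p = 0.0318). Its call ended without vehicle replicate 1 (0.27) or 2 (0.25) and without DOX replicate 1 (0.25) or 2 (0.28), with the GC trend removed (0.22) and by its highest bin (0.30).

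ETS2 held 80.7, 81.8 and 85.6 CPM with vehicle and 67.3, 65.4 and 56.6 CPM with DOX in BT-549, lower in every DOX library (log2 fold change -0.39 ± 0.12, adjusted p = 0.00979). The call ended without DOX replicate 3 (-0.31), and around its start sites alone the value was 0.09. The promoter was not called, with 32.0, 36.2 and 40.3 CPM and 43.4, 38.7 and 33.7 CPM (log2 fold change 0.09 ± 0.16, adjusted p = 0.705), and the fall lay downstream, where the printed element at chr21:38831401-38832200 went from 16.5, 16.5 and 16.1 CPM to 1.55, 2.47 and 3.44 CPM (log2 fold change -2.70 ± 0.32, adjusted p = 3.4e-07) and the other downstream region closed by less (-0.47, adjusted p = 0.0461). The DOX libraries were below the vehicle libraries at both. In BT-549 the printed element had a peak in 3 of 3 vehicle and 0 of 3 DOX libraries, and so was kept through vehicle peaks alone.

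The PEA3 genes and FLI1 were not called over their windows in BT-549. ETV1 held 257, 237 and 289 CPM with vehicle and 245, 228 and 285 CPM with DOX (log2 fold change -0.04 ± 0.09, adjusted p = 0.75). Its promoter region held 155, 144 and 182 CPM and 171, 164 and 202 CPM (log2 fold change 0.17 ± 0.10, adjusted p = 0.227), which overlapped and was called with TMM and RLE factors (0.27 and 0.27) and by its highest bin (0.48), while an intronic region at chr7:13919801-13921000 closed from 72.3, 65.3 and 69.9 CPM to 42.4, 31.8 and 39.0 CPM (log2 fold change -0.87 ± 0.14, adjusted p = 1.7e-05) without overlap. ETV5 held 265, 254 and 288 CPM and 219, 199.6 and 269 CPM (log2 fold change -0.22 ± 0.09, adjusted p = 0.0546), overlapping groups, with a promoter that was not called (-0.11, adjusted p = 0.442). TMM, RLE and DESeq2 scaling gave the ETV5 window a call, at -0.27, -0.26 and -0.26, as did replicates as blocks (-0.24) and leaving out vehicle replicate 2 (-0.26) or DOX replicate 3 (-0.36). The ETV4 promoter held 19.6, 18.7 and 18.8 CPM with vehicle and 28.1, 29.4 and 21.0 CPM with DOX, higher in every DOX library (log2 fold change 0.45 ± 0.19, adjusted p = 0.0738). It was called with TMM, RLE and DESeq2 scaling (0.56, 0.56 and 0.57) and without DOX replicate 3 (0.61), while its highest bin gave -0.01. Weaker regions closed at ETV4 (-1.72), ETV5 (-1.31) and FLI1 (-1.15), and a region downstream of ETV1 opened (0.55). Each of those that closed had a peak in 3 of 3 vehicle and 0 of 3 DOX libraries, and so was kept through vehicle peaks alone. The FLI1 call ended with DESeq2 (-1.06), by the highest bin (-1.10) and without vehicle replicate 3 (-0.91) or DOX replicate 2 (-0.85), and that of ETV1 without vehicle replicate 1 (0.48) or 2 (0.47) or DOX replicate 3 (0.42) and by the highest bin (0.49). Over their windows ETV4 and FLI1 had changes of 0.15 and -0.18 (adjusted p = 0.553 and 0.406), and the FLI1 promoter, which had a peak in 3 of 3 vehicle and 2 of 3 DOX libraries, held 24.6, 24.9 and 30.0 CPM with vehicle and 30.5, 24.0 and 19.3 CPM with DOX.

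Over all regions of the 10 windows in BT-549, 4 of 42 opened and 19 closed, against 12.2% and 18% of all 46298 regions. DESeq2 called 5 opened and 11 closed, beside 6808 opened and 5667 closed of all regions. The median of all regions was -0.10 with library sums and 0.00 with TMM factors. Relative to -0.10 the changes were -2.18 at the ELF3 downstream element, -1.72 at the ELF5 element, -2.60 at the ETS2 element and 2.30 at the ETS1 downstream element. Of the called regions of the line, 40.4% had opened with library sums, 51.7% with TMM, 52.1% with RLE factors, 54.6% with DESeq2 and 43.4% with the GC trend removed. The median GC content was 45.0% in the regions that opened and 46.1% in those that closed, beside 58.5% and 44.5% over all BT-549 regions that opened and closed. At start sites 1 of 9 regions opened and 1 closed, beside 17.6% and 8.12% of 13613 regions at a start site of any protein-coding gene. Away from them 3 of 33 opened and 18 closed, beside 9.92% and 22.1% of 32685. The count of regions that opened went to 2 without vehicle replicate 1 or 2, and that of regions that closed to 12 without vehicle replicate 1 or 3. By single bins, at a fold change of 2 and an adjusted p under 0.01, 13 of 493 bins opened and 36 closed (2.64% and 7.30%), beside 2.07% and 2.87% of 472935 bins. DESeq2 called 8 and 12, beside 0.940% and 0.681% of all bins. Of the 36 bins, 13 lay in the ELF3 window, 8 in ETS1, 7 in ELF5 and 5 in ETS2, where DESeq2 called 7 in ELF3, 0 in ETS1, 3 in ELF5 and 2 in ETS2.

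**Figure D3:**
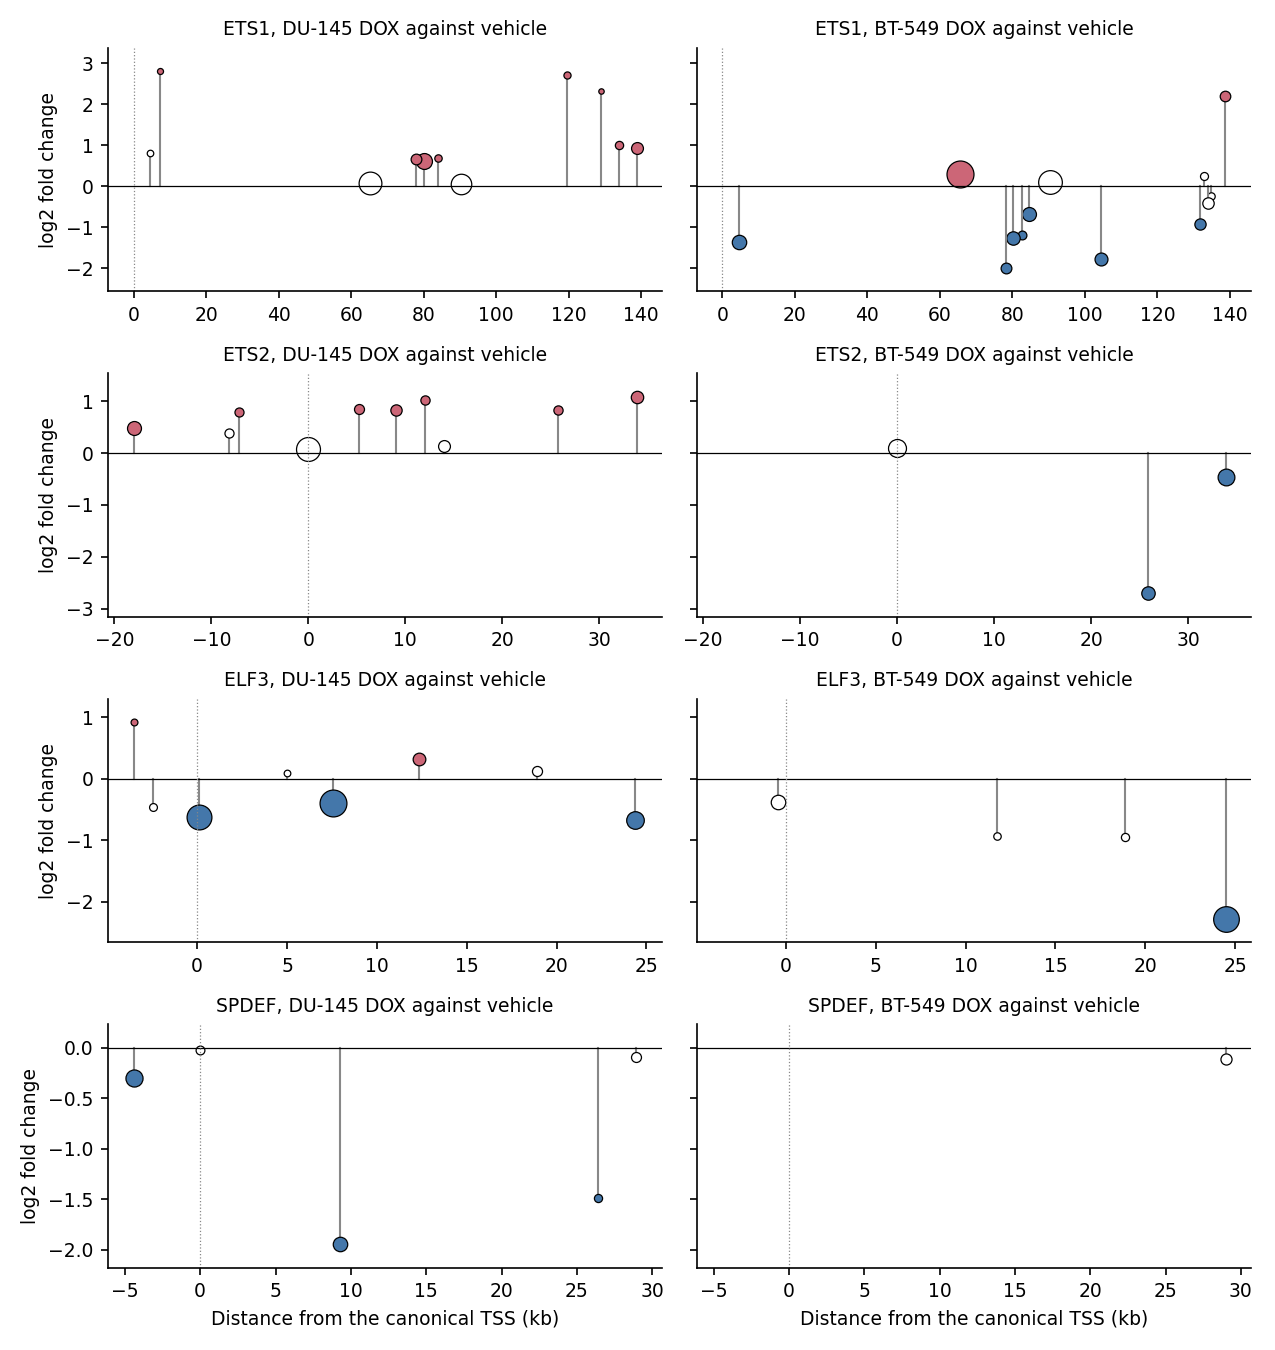
Log2 fold change with DOX of every accessible region in the windows of ETS1, ETS2, ELF3 and SPDEF, by distance from the canonical TSS in kb (positive downstream), for DU-145 at left and BT-549 at right. Red points opened, blue points closed, white points were not called, and a larger point had more vehicle coverage. In ETS1 8 regions opened and 0 closed in DU-145, and 2 opened and 7 closed in BT-549.

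The vehicle libraries of the lines were compared to ask where the family is accessible before DOX. Only bins that both tables hold were used, because the regions were called separately in each line. ETV4 and ELF3 were higher in DU-145, and ETS1, ELF5, ETV1 and ETV5 were lower. The 2 that were higher compare with 39.8% of all 16423 windows tested, and the 4 that were lower with 38.1%, a share near that of all windows. The median of the 10 genes was -0.27, against 0.01 over all windows. Copy number and accessibility cannot be told apart here, and the median log2 difference of all windows within 5 Mb of each gene is given for context.

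ETV1 differed most. Its 4 shared bins held 55.9, 47.5 and 56.7 CPM in BT-549 vehicle and 1.78, 0.464 and 0.311 CPM in DU-145 vehicle libraries, a difference of -6.02 ± 0.25 (adjusted p = 7.9e-20). All BT-549 libraries were far above all DU-145 libraries, and the ETV1 window had 64 accessible bins (6.4 kb) in BT-549 and 4 (0.4 kb) in DU-145. MACS2 called a peak within 1 kb of the canonical ETV1 TSS in 3 of 3 BT-549 vehicle and 0 of 3 DU-145 vehicle libraries. At the 4 shared bins, which lie at another annotated TSS, a peak was called in 1 of 3 DU-145 vehicle libraries. Genes within 5 Mb had a median of -0.19. ELF5 held 35.5, 41.3 and 26.1 CPM in BT-549 and 8.80, 9.31 and 8.10 CPM in DU-145 over 8 shared bins, without overlap (-1.97 ± 0.16, adjusted p = 1.7e-12), which shrank to -0.24 with 50 kb flanks. Its neighbours had a median of 0.23. ETV5 held 286, 276 and 316 CPM in BT-549 and 188, 181 and 194 CPM in DU-145 (-0.64 ± 0.07, adjusted p = 1.6e-10), its neighbours having a median of -0.18, and ETS1 held 263, 265 and 299 CPM and 221, 225 and 222 CPM (-0.31 ± 0.06, adjusted p = 6.8e-05, and -0.20 with the GC trend removed), its neighbours having 0.10. Every DU-145 library was below every BT-549 library for each of them.

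ELF3 differed between the lines in opposite directions at its promoter and its downstream element. At the promoter, shared bins held 26.3, 24.1 and 22.8 CPM in BT-549 and 104, 98.4 and 104 CPM in DU-145 (2.06 ± 0.10, adjusted p = 7.7e-19). At the downstream element they held 94.2, 100.3 and 104 CPM in BT-549 and 39.7, 45.2 and 53.7 CPM in DU-145 (-1.11 ± 0.10, adjusted p = 6.0e-12). The groups did not overlap at either, and the window as a whole was higher in DU-145 by 0.28 (adjusted p = 0.000642), by 1.97 with 10 kb flanks, with -0.31 as the median of its neighbours. ETV4 held 23.9, 22.8 and 23.1 CPM in BT-549 and 30.0, 27.7 and 30.3 CPM in DU-145 (0.33 ± 0.13, adjusted p = 0.0202), below the median of 0.78 of its neighbours, and was 0.54 with 50 kb flanks, and its call ended without DU-145 vehicle replicate 3 (0.31) and with the GC trend removed (0.20). ETS2, EHF, SPDEF and FLI1 were not called, at 0.15, -0.17, -0.28 and -0.26. ETS2 was called higher with 10 kb flanks (0.57), within 2 kb of start sites (0.99), with the GC trend removed (0.20) and without DU-145 vehicle replicate 1 (0.22). EHF was called lower without BT-549 vehicle replicate 3 (-0.26) and SPDEF with the GC trend removed (-0.43). At ETS2 too the promoter was higher in DU-145 (0.99, adjusted p = 1.1e-10) and both downstream regions were lower (-1.63 and -1.08).

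The level per kb of a gene depended on the bins that were used. Over all accessible bins of BT-549, vehicle levels (CPM per kb, mean ± SD) were 40.8 ± 4.14 for ETV1 and 38.9 ± 2.51 for ETV5, within their spread of each other, 26.4 ± 5.65 for ELF5, 25.7 ± 0.766 for ELF3, 21.2 ± 0.669 for ETS2 and 19.0 ± 1.18 for ETS1. EHF (17.5 ± 1.97), SPDEF (13.0 ± 1.30), ETV4 (11.3 ± 0.629) and FLI1 (9.54 ± 1.12) had less. Over shared bins, 4 of 64 for ETV1, the BT-549 levels were 133 ± 12.8 for ETV1, 71.4 ± 4.97 for ETV5, 42.9 ± 9.62 for ELF5, 36.0 ± 1.21 for ELF3, 34.1 ± 2.44 for ETS1, 29.7 ± 4.11 for EHF, 26.5 ± 0.947 for ETS2, 17.4 ± 1.80 for SPDEF, 16.6 ± 0.424 for ETV4 and 8.41 ± 0.683 for FLI1. The ranges of mean ± SD overlapped between neighbours in this list from ELF5 to ETS2, and between SPDEF and ETV4. Over all bins of DU-145 the vehicle levels were 32.1 ± 1.14 for ETV5, 23.2 ± 0.648 for ELF3, 15.6 ± 0.110 for SPDEF, 15.3 ± 0.182 for ETS1, 14.6 ± 1.06 for EHF, 13.2 ± 0.953 for ETS2, 7.23 ± 0.542 for ETV4, 5.79 ± 0.593 for ELF5, 3.63 ± 0.229 for FLI1 and 1.59 ± 1.52 for ETV1. Over shared bins ETV5 (45.7 ± 1.53) and ELF3 (43.7 ± 2.67) lay within their spread of each other in DU-145, as did ETS2 (29.3 ± 2.60), ETS1 (27.5 ± 0.301) and EHF (26.6 ± 3.02), followed by ETV4 (20.9 ± 1.01), SPDEF (14.3 ± 0.809), ELF5 (10.9 ± 0.754), FLI1 (6.93 ± 2.26) and ETV1 (2.13 ± 2.02). The covered length of a window also differed between the lines, with 11.5 kb in DU-145 and 3.9 kb in BT-549 for ETS2, 10.3 and 4.4 kb for ELF3, 4.2 and 0.7 kb for SPDEF, and 1.9 and 4.7 kb for FLI1.

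**Figure D4:**
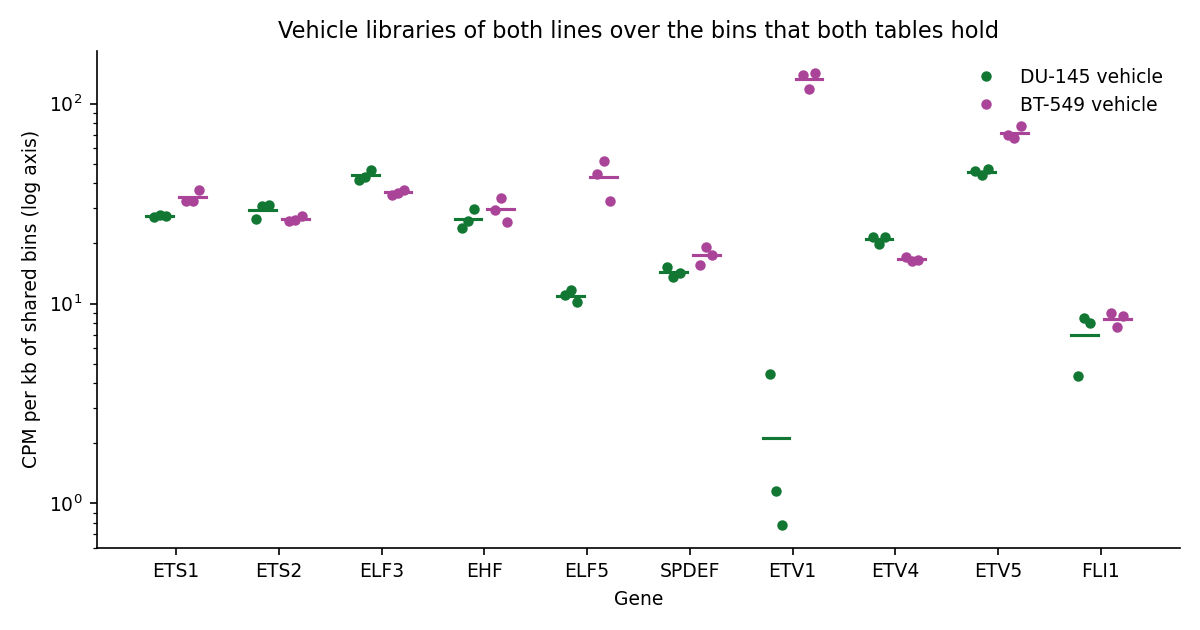
Coverage per kb of shared bins (CPM per kb, logarithmic axis) of each gene window in the 3 vehicle libraries of each line, with a bar at the mean. ETV1, on 4 shared bins, has a mean of 133 CPM per kb in BT-549 and 2.13 in DU-145, the widest gap of the 10 genes.

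An interaction term over shared bins tested whether the response to DOX depended on the line. The effect was more positive in DU-145 for ETS1, ETS2, ELF3, ELF5 and ETV1 and more negative for EHF. The 5 compare with 15.7% of all 16423 windows and the 1 with 18.6%. The median difference of the 10 genes was 0.54, against -0.04 over all windows. For ELF3 the difference was 1.28 ± 0.14, adjusted p = 3.5e-09, for ELF5 1.42 ± 0.33, adjusted p = 0.000935, for ETS2 0.79 ± 0.13, adjusted p = 1.1e-05 and for EHF -0.79 ± 0.17, adjusted p = 0.000274. The ELF3 call ended with 10 kb flanks (0.07), which leave out its downstream element, and within 2 kb of start sites (0.00), and the ELF5 call with 50 kb flanks (0.33). With 50 kb flanks the ELF3 difference was 0.48. The ETS2 difference was 0.51 with 10 kb flanks, and within 2 kb of start sites it was just under 0 (-0.0052) and not called. ETS1 (0.29 ± 0.10, adjusted p = 0.0181) lost its call without DU-145 DOX replicate 1 (0.25) or BT-549 vehicle replicate 3 (0.23), with the GC trend removed (0.18) and within 2 kb of start sites (0.17). ETV1 (1.27 ± 0.40, adjusted p = 0.0125) lost its call without DU-145 vehicle replicate 2 (0.81) or 3 (1.0), or DU-145 DOX replicate 1 (1.06), and with limma (0.68), and was 2.25 without DU-145 vehicle replicate 1. FLI1 (1.04 ± 0.45, adjusted p = 0.07) gained a call without DU-145 vehicle replicate 2 (1.25) or DU-145 DOX replicate 2 (1.25), and ETV5 (0.21 ± 0.11, adjusted p = 0.137) with replicates as blocks (0.22) and without BT-549 DOX replicate 3 (0.35).

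The same test on 23 pairs of overlapping regions in the 10 windows, a unit chosen after the data were seen, gave 11 more positive and 2 more negative in DU-145, against 27.3% and 11.3% of all 32671 pairs. In vehicle cells, 6 of the 23 were higher and 13 lower in DU-145, against 27.0% and 48.1% of all pairs. By the calls of the whole region in each line, which extends past the shared bins, 5 pairs opened in DU-145 and closed in BT-549, 0 did the reverse, 1 opened in both and 2 closed in both, beside 4.87%, 3.63%, 4.03% and 3.36% of all pairs. The regions of these 8 pairs that the naming rule does not cover were picked after their values were seen. The 5 were in 3 ETS1 introns and the 2 regions downstream of ETS2, and shared bins alone did not show both changes at 2 of them. At the ETS1 intron starting at 128509001, shared bins held 7.82, 7.89 and 9.43 CPM with vehicle and 7.69, 7.65 and 9.003 CPM with DOX in DU-145, with no rise. At the ETS1 intron starting at 128503501, they held 5.13, 6.24 and 5.95 CPM with vehicle and 5.29, 3.25 and 4.64 CPM with DOX in BT-549, groups that overlapped.

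At the ETS2 downstream element, shared bins held 6.23, 5.67 and 7.06 CPM with vehicle and 12.7, 9.56 and 13.3 CPM with DOX in DU-145, and 19.5, 19.5 and 19.1 CPM with vehicle and 1.84, 2.88 and 3.93 CPM with DOX in BT-549. DU-145 libraries were higher with DOX and BT-549 libraries lower, without overlap in either line, and the interaction was 3.62 ± 0.37 (adjusted p = 2.2e-10). At the ETS1 intron of chr11:128506901-128508100 the corresponding values were 32.8, 37.1 and 33.2 and 60.3, 56.2 and 56.2 CPM in DU-145, and 16.7, 20.9 and 22.5 and 8.87, 0.806 and 13.5 CPM in BT-549 (2.03 ± 0.32, adjusted p = 1.9e-06). BT-549 DOX replicate 2 was far below the other BT-549 DOX libraries there. The ETS1 downstream element opened in both lines and by more in BT-549, with 13.8, 14.4 and 15.4 CPM with vehicle and 30.9, 30.6 and 28.5 CPM with DOX in DU-145 and 8.87, 9.11 and 10.5 CPM and 42.7, 44.3 and 38.7 CPM in BT-549 (-1.10 ± 0.23, adjusted p = 0.000155). At the ELF3 and ELF5 elements, which closed in both lines, the fall was larger in BT-549, with differences of 1.83 and 1.42. The ELF3 promoter, by contrast, gave 0.00 (adjusted p = 0.99).

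**Figure D5:**
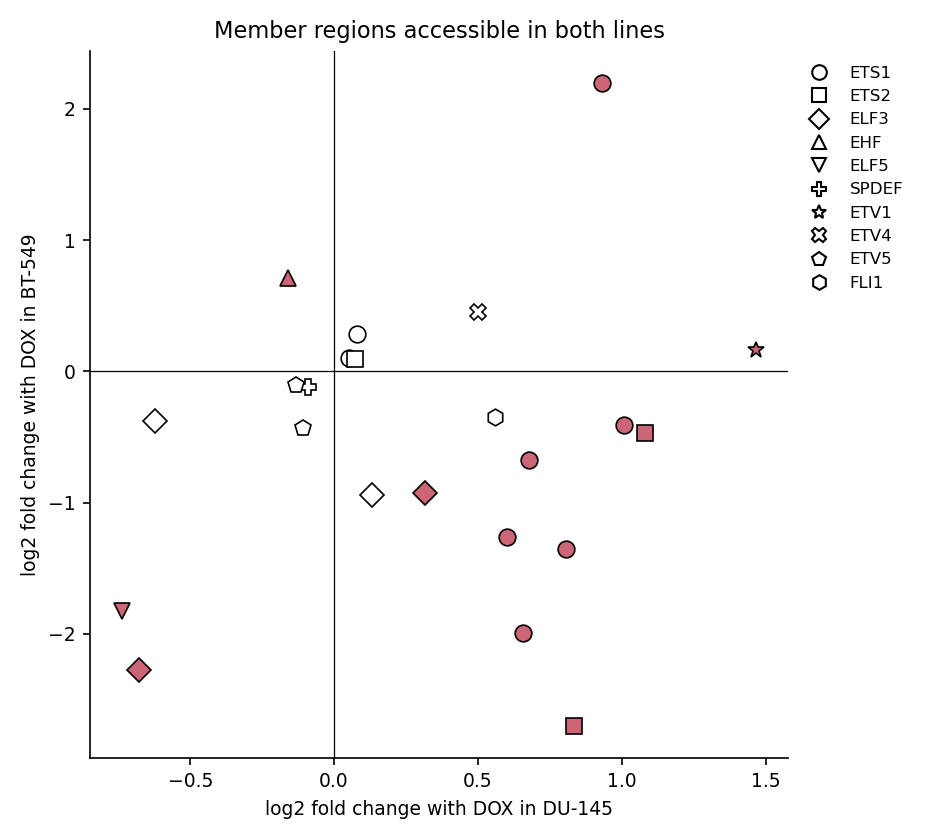
Log2 fold change with DOX in DU-145 (horizontal) and BT-549 (vertical) of the 23 regions that are accessible in both lines, with a symbol for each gene and filled symbols where the interaction of line and DOX was called. Each value is of the whole region in that line. With a positive value in DU-145 and a negative one in BT-549 there are 7 pairs of ETS1 and ETS2, 2 of ELF3 and 1 of FLI1. Of the 7, 5 were called in each line, and of these the ETS1 intron at 0.66 in DU-145 did not rise there on shared bins.

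The other 18 ETS genes (ELF1, ELF2, ELF4, ELK1, ELK3, ELK4, ERF, ERG, ETV2, ETV3, ETV3L, ETV6, ETV7, FEV, GABPA, SPI1, SPIB and SPIC) were counted for comparison. In DU-145 4 opened and 8 closed, with ELK4 (-0.56), GABPA (-0.54), ELF1 (-0.41) and ELK1 (-0.48) at the smallest adjusted p, beside 20.6% and 31.3% of all windows, and the median of the 18 was -0.02. These are broadly expressed family members, ELK1 and ELK4 being partners of serum response factor and GABPA an activator of housekeeping and mitochondrial genes. In BT-549, where ERG had 0 bins, 2 of 17 opened and 3 closed, beside 19.0% and 13.8% of all windows, with ELK3 (-0.42), ELF4 (-0.35), ERF (0.34) and ETV3 (-0.39) named by the same rule. In vehicle cells 6 of 17 were higher and 5 lower in DU-145, beside 39.8% and 38.1%. SPIC was higher by 2.66, on only 4 shared bins, GABPA by 0.88 and ERF by 0.70, with ELF4 at -1.21. The interaction was positive for 4 of 17 and negative for 3, beside 15.7% and 18.6%, with ELK3 at 0.72, GABPA at -0.72, ERF at -0.51 and ETV3 at 0.63.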

How the data were processed

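ATAC-seq measured chromatin accessibility in the tet-MUC1shRNA lines DU-145 and BT-549, 3 vehicle and 3 DOX libraries per line, 12 in all. The authors aligned reads to hg38 with BWA, removed duplicates with Picard and called peaks with MACS2 2.2.7.1. The deposited bin tables hold an expected count per bin of 100 bp, the mean fragment coverage of its bases, which was rounded for the tests. The deposited peak files give the fold over background and, for significance, -log10 values.

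Members were the 10 named ETS genes, and the members and gene lists were chosen with earlier results of these data known. Bins within a gene body and 20 kb on each side (GENCODE v44) were summed, values were scaled to library sums, and features with a total under 10 were left out. Tests used edgeR 4.0.16 (quasi-likelihood, robust) in R 4.3.3, with Benjamini-Hochberg correction over all features and a threshold of 0.05. Standard errors were derived from the F statistic. Alternatives used TMM and RLE factors, DESeq2 1.42.0, limma 3.58.1 (trend), other filters and flanks, a GC correction, a replicate block and each library left out in turn. Shared accessible regions were added after seeing the data. Tests were tried on simulated data. Tables and figures were made with Python 3.11.15, pandas 2.3.3, numpy 2.4.6 and matplotlib 3.10.9.

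The genes named are the 10 members, MUC1 and, per comparison, the 4 other ETS genes with the smallest adjusted p. The regions named are, per line and member, the most covered region in vehicle, the region at its TSS and, in each direction, the called region with the smallest adjusted p. Other regions, and the 7 printed sequences, were chosen after their values were seen.

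Summed coverage was between 12370094 and 25232000 for DU-145. For BT-549 it was between 9142900 and 13606129 with vehicle but only between 2502510 and 3267024 with DOX, so that weak regions are measured with less precision there. Bins exist only in regions called in a line, so that a gene with few bins is measured on little sequence, and a closed site outside all regions has no value. Accessibility is not expression or factor binding. Correlations between vehicle and DOX libraries of a line ran from -0.04 to 0.22 for the same replicate number and from -0.27 to 0.20 for other numbers. Replicate numbers were not taken as pairs in the main tests, and whether they mark pairs is not settled. The 12 libraries read here include none without the MUC1 hairpin given DOX, and input or copy number was not measured.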

Additional observations from a re-analysis of the deposited data

Results flagged for a closer look

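The effect of DOX differed between the lines by the interaction test for 6 gene windows, as the log2 effect in DU-145 minus that in BT-549: ETS1 0.29, ETS2 0.79, ELF3 1.28, EHF -0.79, ELF5 1.42 and ETV1 1.27. Over all 16423 windows tested, the share called was 15.7% with a positive and 18.6% with a negative difference. The ELF3 value was 0.07 with 10 kb flanks and the ELF5 value 0.33 with 50 kb flanks, both without a call, and ETS2 was not called within 2 kb of start sites. With single libraries left out ETV1 ranged from 0.81 to 2.25 and ETS1 lost its call without DU-145 DOX replicate 1 (0.25) or BT-549 vehicle replicate 3 (0.23). The effect also differed by this test for 8 regions that are accessible in both lines and whose whole regions were called in both. By the interaction test alone, 27.3% of all 32671 pairs had a positive and 11.3% a negative difference. In ETS1 the 8 include the downstream element starting at 128448401 (-1.10) and the introns starting at 128503501 (1.15), 128506901 (2.03) and 128509001 (1.99), and in ETS2 the downstream regions starting at 38831401 (3.62) and 38839101 (1.73). The last 2 of the 8 were the ELF3 downstream element starting at 202034301 (1.83) and the ELF5 intronic element starting at 34501501 (1.42). The test used only bins that both lines hold, and on these the intron starting at 128509001 did not rise in DU-145 and the groups of that starting at 128503501 overlapped in BT-549. The regions were chosen after their values were seen.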

How the results depend on the processing

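The counts of windows and regions called with DOX in DU-145 stayed within 1.5 times under every alternative run, at 9452 windows (7219 to 10233 over the settings, 8031 to 9392 with single libraries left out) and 43168 regions (39613 to 44453, and 38769 to 41283). The 13971 BT-549 regions became 9455 to 14191, and 9441 to 13384 with single libraries left out. With only bins within 2 kb of start sites, members that opened in DU-145 went from 5 to 2, BT-549 windows called from 5551 to 3696, BT-549 members from 1 opened and 3 closed to 0 and 1, and members with a positive or negative interaction from 5 and 1 to 1 and 0. The share of all genes called in each direction under this setting is not given here, so that these counts have no background beside them. The same setting reversed FLI1 in DU-145 (-0.079), ETS2 (0.091) and EHF (-1.08) in BT-549 and the interaction of ETS2 (-0.0052), and the cause was not tested. Shared accessible regions, chosen after seeing the data, gave 24532 calls between lines (12784 windows) and 12611 for the interaction (5626 windows), a unit with more features. Members higher in DU-145 vehicle cells numbered 2, and 1 to 3 with single libraries left out (1 without DU-145 vehicle replicate 3), and members with a positive interaction 3 to 6 (3 without DU-145 DOX replicate 1). BT-549 member regions that opened numbered 4, and 3 to 6 over the settings. With single libraries left out they numbered 2 to 4 (2 without vehicle replicate 1 or 2). Those that closed numbered 19, and 11 to 19 over the settings (11 with DESeq2). With single libraries left out these numbered 12 to 16 (12 without vehicle replicate 1 or 3). Bins called in DU-145 went from 46702 to 12947 with DESeq2 and 245025 without a fold limit at an adjusted p of 0.05, and member bins from 24 opened to 2 and 162, and from 9 closed to 16 with TMM factors and 80 without a fold limit. In BT-549 bins went from 23334 to 7669 and 51731, member bins opened from 13 to 8 with DESeq2, and closed from 36 to 12 and 60. The cause of these differences was not tested. Same-numbered vehicle and DOX libraries had correlations of 0.22, 0.10 and -0.04 in DU-145 and 0.01, 0.18 and 0.06 in BT-549, and a replicate block gave 10233 DU-145 and 6018 BT-549 windows. Over 44 window results of the members and MUC1, 771 alternatives kept the side of the threshold and, where called, the direction, 37 lost the call, 25 gained it and 4 with a call changed direction, and over 47 named regions 624, 55, 25 and 0. Results without a call in either fit also changed sign under some alternatives, such as the EHF window in DU-145 (0.06 with 50 kb flanks), the ETV1 window in BT-549 (0.17 within 2 kb of start sites), the interaction of ETV4 (-0.15 with 50 kb flanks) and the BT-549 ETV5 promoter (0.23 by its highest bin). Start-site settings gave no value where a gene had no bin there. The low depth of BT-549 DOX libraries limits weak regions.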
